A study of Mus musculus with 28 samples.

Results

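The genes of endoplasmic reticulum protein processing were the rows of the deposited FPKM table whose pathway annotation held the entry Protein processing in endoplasmic reticulum. Of 164 such rows, 3 that also carried the Cell cycle entry (Cul1, Rbx1 and Skp1) were dropped, which left 161 of the 25301 genes in the table. The libraries came from pancreatic macrophages, sorted by FACS, of C57BL/6J mice that were wild-type. The model of acute pancreatitis (AP) and recovery used caerulein, a peptide that overstimulates acinar cells. The 28 RNA-seq libraries fell into 6 groups: D0 (5 libraries), the day 0 group of the caerulein model, D1 AP+Lac (6) and D3 AP+Lac (4), which received lactate and were taken at days 1 and 3, D1 AP+PBS (6) and D3 AP+PBS (4), which received phosphate-buffered saline, and NC (3), an abbreviation used here as a name because its meaning is not given, nor whether these mice received caerulein. The labels state no age, no lactate dose and no sort markers. They also leave it unsaid whether replicates are different mice, so p-values cover the spread between libraries, which may be technical.

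Proteins bound for secretion, the cell surface or lysosomes enter the endoplasmic reticulum (ER) through the Sec61 translocon, receive N-glycans from the oligosaccharyltransferase, and fold with the help of Hsp70, Hsp90 and lectin chaperones and of oxidoreductases that form disulfide bonds. Folded cargo leaves in COPII vesicles, and proteins that fail to fold are moved back to the cytosol, ubiquitinated and degraded. When unfolded protein accumulates, the sensors IRE1 (gene Ern1), PERK (Eif2ak3) and ATF6 raise the output of chaperone genes and restrain translation. In macrophages, XBP1 is also known to take part in cytokine production after Toll-like receptor signalling.

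Values are FPKM, a level corrected for transcript length and for depth, and the recovered depth was 33273322 to 41060499 fragments per library. Of the 161 members, 149 had at least 1 FPKM in at least 3 libraries and were tested together with all 11960 genes that met the same filter. The other 12, among them Calr4, Cryaa, Hspa1l, Sec31b and Uggt2, stayed below it, the highest single value among them being 1.47 FPKM, for Hspa1l. Tests were made with limma on log2(FPKM + 1), a scale that understates the change of weakly expressed genes, and p-values were adjusted by Benjamini-Hochberg over the 11960 genes with a threshold of 0.05. A member is called where its adjusted p lies under that threshold, and each log2 fold change below is on that scale. Counts from other settings stand without the share of all genes called there, unless a background is printed beside them. Counts at an unadjusted p under 0.05 stand without that share throughout, and cannot be read as particular to the genes counted.

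All 10 macrophage markers examined were above 0 in every library, with a summed level of 7261 to 20216 FPKM. RNA of other cell types was also present and moved with the groups. The sum of 9 B and plasma cell markers was 17.3 to 68.1 FPKM in the D0 libraries and 439.9 to 527 FPKM in NC. It was 195 to 1309 FPKM in D1 AP+Lac and 224 to 1365 FPKM in D1 AP+PBS, and 828 to 2432 FPKM in D3 AP+Lac and 563 to 959 FPKM in D3 AP+PBS. For 13 acinar markers the sum was 426 to 814 FPKM in D0 and 6326 to 10179.8 FPKM in NC. At day 1 it was 1339 to 4484 FPKM with lactate and 947 to 5226 FPKM with PBS, and at day 3 638 to 5697 FPKM with lactate and 2821 to 21770.1 FPKM with PBS. Plasma cells and acinar cells are secretory cells rich in ER, so these sums stand beside the results below. In bulk libraries, fewer cells of a type and less RNA per cell cannot be told apart.

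Libraries 5 and 6 of both day 1 groups stood apart in these sums. Their 7 markers of fibroblasts and stellate cells summed to 28.6 and 40.1 FPKM in D1 AP+Lac and 24.9 and 31.8 FPKM in D1 AP+PBS, against 122 to 409 FPKM in libraries 1 to 4 of D1 AP+Lac and 154 to 300.3 FPKM in those of D1 AP+PBS. Their B and plasma cell markers summed to 207 and 195 FPKM in D1 AP+Lac and 374 and 224 FPKM in D1 AP+PBS, against 657 to 1309 FPKM and 627 to 1365 FPKM in libraries 1 to 4 of the same groups. Each count of called members that rests on day 1 libraries is therefore also given without these 4 libraries, an alternative chosen after seeing the data.

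Together the 161 members took 3.06, 3.62, 4.30, 3.48 and 3.57% of the summed FPKM in the 5 D0 libraries, against 2.05, 1.97 and 1.87% in the 3 NC libraries. The D0 libraries all lay above the other 5 groups. The share was 1.98% to 2.55% in D1 AP+Lac and 1.83% to 2.14% in D1 AP+PBS, where the ranges overlapped, and 2.41% to 2.59% in D3 AP+Lac and 1.73% to 2.20% in D3 AP+PBS, where they did not. Over all groups 17 members averaged more than 100 FPKM and 119 more than 10. Within each group the member with the highest mean was Hspa8, the constitutive cytosolic Hsp70, at 2233 ± 294 FPKM in D0 and 1023 ± 170.0 FPKM in NC (SD, n = 5 and 3). Calr and Hspa5 were the next highest members in D0, and Hsp90ab1 and Calr in NC. Of the 149 members tested, 85 (57.0%) had their highest group mean in D0, against 22.1% of all genes tested, and 33 (22.1%) had their lowest there, against 52.6%.

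**Figure D1:**
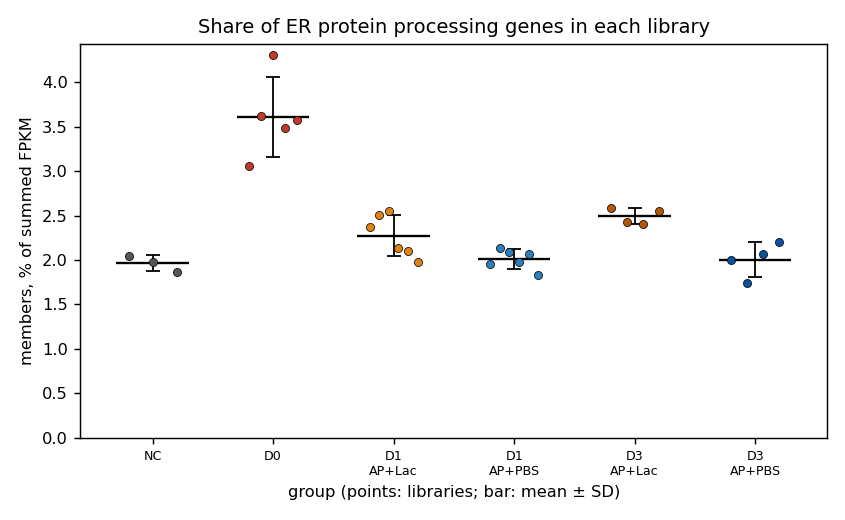
Share of the 161 members in the summed FPKM of each library (vertical axis, %), by group (horizontal axis); points are libraries and bars the mean ± SD. The D0 libraries lie at 3.06% to 4.30%, above the other groups, and the D3 AP+Lac libraries at 2.41% to 2.59% lie above the D3 AP+PBS libraries.

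D0 was compared with NC first. Genes for translocation, glycosylation, folding, disulfide formation and export were mostly higher at D0, while stress sensors and transducers went both ways. Of 149 members, 82 were called higher (55.0%, against a background of 19.7% of all genes tested) and 33 lower (22.1%, against 41.4%). The same backgrounds stand beside the counts by role below. The median log2 fold change was 0.39 over the members and -0.22 over all genes tested. For 85 members every D0 library lay above every NC library (57.0%, against 21.7% of all genes), and for 32 every D0 library lay below (21.5%, against 46.6%). Quantile and median-ratio scaling moved the median of all genes up by 0.27 and 0.18 and gave 83 higher and 18 lower, and 98 higher and 15 lower members.

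The Hsp70 and Hsp90 chaperones of the lumen included Hyou1 and Hspa5, the members with the largest changes in this comparison. Hspa5 (NCBI Gene ID 14828) encodes BiP, the luminal Hsp70 that also holds the sensors inactive, and had 1005, 1165, 1716, 1055 and 1174 FPKM in the D0 libraries, against 299, 331 and 277 FPKM in the NC libraries (log2 fold change 1.99, SE 0.18, adjusted p = 2.2e-09). The lowest D0 library was more than 3 times the highest NC library. Hyou1 (NCBI Gene ID 12282), which encodes the Hsp110-type nucleotide exchange factor of BiP, had 101, 149, 189, 141 and 138 FPKM in D0 and 34.4, 35.4 and 29.3 FPKM in NC (log2 fold change 2.06, SE 0.23, adjusted p = 3.7e-08). Dnajb11, a J-domain co-chaperone of BiP, had 92.4, 112, 142, 114 and 111 FPKM in D0 and 34.6, 38.6 and 33.6 FPKM in NC (log2 fold change 1.64, SE 0.14, adjusted p = 6.2e-10). Hsp90b1, the luminal Hsp90 known as GRP94, had 600.2, 728, 1017, 721 and 750.5 FPKM in D0 and 384, 355 and 337 FPKM in NC (log2 fold change 1.07, SE 0.23, adjusted p = 2.8e-04). In all these genes the groups did not overlap. Of the 8 chaperones and co-chaperones of the lumen, 6 rose and 1, the exchange factor Sil1, fell, and the 8 summed to a mean of 2325 FPKM in D0 and 783 FPKM in NC.

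Oxidoreductases that form and rearrange disulfide bonds rose in 6 of 8 cases, with a median log2 fold change of 1.00. Pdia6 (NCBI Gene ID 71853) had 377, 440.1, 555, 444 and 453 FPKM in D0 and 123, 132 and 111 FPKM in NC (log2 fold change 1.88, SE 0.17, adjusted p = 1.5e-09). The log2 fold changes were 1.54 (adjusted p = 2.2e-06) for Pdia4, 1.23 (adjusted p = 4.9e-09) for P4hb, the classical protein disulfide isomerase, and 1.06 (adjusted p = 1.6e-07) for Pdia3, which works with the lectin chaperones. The oxidases that recharge these enzymes split: Ero1a rose by 0.94 (adjusted p = 2.7e-06) and Ero1b had -0.37 (adjusted p = 0.037). Among 10 tested genes of glycan trimming and lectin chaperones 5 rose and 4 fell. Calr (NCBI Gene ID 12317), the soluble lectin chaperone calreticulin, had 1188, 1305, 1636, 1239.8 and 1276 FPKM in D0 and 493, 509.6 and 437 FPKM in NC (log2 fold change 1.46, SE 0.15, adjusted p = 9.8e-09), and its membrane-bound counterpart Canx had 0.56 (adjusted p = 8.9e-05). Man1a, a mannosidase that trims N-glycans mainly in the Golgi, had 24.9, 29.9, 22.6, 26.8 and 24.9 FPKM in D0 and 59.2, 48.3 and 67.7 FPKM in NC (log2 fold change -1.14, SE 0.12, adjusted p = 1.8e-08). The 4 that fell were the mannosidases Man1a, Man1a2, Man1b1 and Man1c1, so chaperones and mannosidases of this list moved in opposite directions.

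Entry and glycosylation rose with few exceptions. Of 13 translocon genes 11 rose (median 0.67), and the other two were not called. Ckap4, an ER sheet membrane protein counted with this role here, had 35.8, 36.99, 37.2, 40.04 and 36.1 FPKM in D0 and 9.01, 13.5 and 9.54 FPKM in NC (log2 fold change 1.73, SE 0.20, adjusted p = 9.5e-08). Sec61b, the beta subunit of the translocon channel, had 1.25 (adjusted p = 3.6e-06), and Ssr4, of the translocon-associated protein complex, had 0.67 (adjusted p = 4.6e-04). Of 10 oligosaccharyltransferase subunits 9 rose (median 0.73), among them the catalytic subunit Stt3a at 0.76 (adjusted p = 1.5e-07), Ostc at 1.01 (adjusted p = 8.2e-07) and the scaffold subunit Rpn1 at 1.06 (adjusted p = 2.9e-05). Tusc3, the exception, was lower at -0.84 (adjusted p = 3.2e-06), while its paralog Magt1 was higher at 0.55 (adjusted p = 0.0012). Of 14 genes for export to the Golgi 11 rose (median 0.55), among them the COPII coat genes Sec23b at 1.23 (adjusted p = 5.1e-09), Sec24d at 1.16 (adjusted p = 5.7e-06) and Sec13 at 1.02 (adjusted p = 2.3e-07). Lman1, a cargo receptor for glycoproteins, had 0.57 (adjusted p = 0.0062).

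Genes for recognition and retrotranslocation were divided, with 13 of 29 called higher and 9 lower. Edem1, a lectin that marks misfolded glycoproteins, had 65.7, 75.8, 89.2, 70.9 and 68.8 FPKM in D0 and 44.1, 44.5 and 41.00 FPKM in NC (log2 fold change 0.76, SE 0.10, adjusted p = 7.3e-07). Derl1 had 0.75 (adjusted p = 3.0e-09), Selenos 1.17 (adjusted p = 3.1e-09), Sel1l 0.54 (adjusted p = 1.6e-04) and Vcp, the ATPase that extracts substrates, 0.45 (adjusted p = 0.0043). Herpud1 (NCBI Gene ID 64209), a membrane scaffold of the degradation complex, went the other way, with 49.98, 56.7, 54.8, 40.1 and 43.4 FPKM in D0 and 99.1, 94.6 and 91.8 FPKM in NC (log2 fold change -0.96, SE 0.21, adjusted p = 4.5e-04). Its D0 libraries all lay below its NC libraries. Of 15 ubiquitin enzymes 4 rose, including the ligase Syvn1 at 0.67 (adjusted p = 0.035), and 2 fell. The call of Syvn1 was lost without NC 1, 2 or 3 or without D0 2 or 3, and that of Ero1b without NC 1, 2 or 3 or without D0 1, 4 or 5, with adjusted p up to 0.11 for Syvn1 and 0.16 for Ero1b.

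Of 24 sensors and transducers tested, 11 were called lower (background 41.4% of all genes tested) and 8 higher (background 19.7%). Their median was -0.13, against -0.22 over all genes tested. Xbp1 (NCBI Gene ID 22433), the factor whose mRNA IRE1 splices, had 140.2, 178, 189, 183 and 175 FPKM in D0 and 89.2, 95.8 and 83.4 FPKM in NC (log2 fold change 0.94, SE 0.18, adjusted p = 7.0e-05), a gene-level value that does not separate spliced from unspliced RNA. Atf6 had 0.34 (adjusted p = 0.0048) and Ern1 -0.05 (adjusted p = 0.75). On the PERK arm, Eif2ak3 (NCBI Gene ID 13666) had 7.07, 8.90, 6.79, 7.69 and 6.92 FPKM in D0 and 13.00, 13.00 and 12.2 FPKM in NC (log2 fold change -0.70, SE 0.17, adjusted p = 0.0013). Atf4 had -0.11 (adjusted p = 0.43) and Ddit3, which encodes the death-linked factor CHOP, 0.42 (adjusted p = 0.067), neither of them called. Ppp1r15a (NCBI Gene ID 17872), whose product GADD34 directs the dephosphorylation of eIF2 alpha, had 29.9, 41.3, 22.6, 61.8 and 29.7 FPKM in D0 and 105, 89.3 and 102 FPKM in NC (log2 fold change -1.47, SE 0.30, adjusted p = 2.0e-04). So Xbp1 was higher in every D0 library, and Eif2ak3 and Ppp1r15a were lower in every D0 library, than in any NC library. The apoptosis genes moved apart as well: Bax, a pore-forming promoter of cell death, had 209.9, 180.4, 149.6, 179 and 187 FPKM in D0 and 54.00, 78.4 and 57.6 FPKM in NC (log2 fold change 1.51, SE 0.12, adjusted p = 3.0e-10), whereas Bcl2, an inhibitor of it, had 2.80, 2.20, 1.42, 2.09 and 1.85 FPKM in D0 and 6.31, 5.85 and 6.63 FPKM in NC (log2 fold change -1.26, SE 0.31, adjusted p = 0.0011).

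Cytosolic chaperones annotated to the pathway rose in 9 of 17 cases and fell in 3. Hspa8 had 1754, 2312, 2559, 2255 and 2285 FPKM in D0 and 1182, 1042 and 844 FPKM in NC (log2 fold change 1.13, SE 0.15, adjusted p = 1.1e-06). Hsp90aa1, the inducible cytosolic Hsp90, had 0.92 (adjusted p = 0.0036). The heat-inducible Hsp70 genes Hspa1a and Hspa1b had -0.98 (adjusted p = 0.02) and 0.19 (adjusted p = 0.67), but they are near-identical copies, and how fragments were assigned between them is not given, so the value of each copy is uncertain. Without NC 1 or NC 3 the adjusted p of Hspa1a was 0.055 or 0.053.

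Several of these changes moved with the markers of other cells, since at D0 the sums of B and plasma cell and of acinar markers were below those of NC, with Tnfrsf17 at 0 in 2 D0 libraries. The sum of 10 neutrophil markers was 261 to 742 FPKM in D0 and 61.5 to 162 FPKM in NC, with Camp at 0 in 2 D0 libraries. For 9 T and NK cell markers the sum was 8.01 to 36.4 FPKM in D0 and 93.5 to 151 FPKM in NC, and for 7 dendritic cell markers it was 16.8 to 42.3 FPKM in D0 and 153 to 207 FPKM in NC. The 7 fibroblast and stellate cell markers summed to 6.77 to 17.8 FPKM in D0 and 36.9 to 58.96 FPKM in NC, and 6 endothelial markers to 7.82 to 14.1 FPKM in D0 and 21.1 to 29.8 FPKM in NC. The part of these 5 lists in the result was not tested. The mean log2(FPKM + 1) of the B and plasma cell markers was 1.33 to 2.49 in D0 and at least 3.80 in every library of the other groups. As a covariate this level is nearly confounded with D0, so fits with it extrapolate there. With the levels of both secretory cell lists as covariates, an alternative chosen after seeing the data, 80 members were higher and 10 lower. In that fit the log2 fold change was 2.04 for Hspa5, 1.69 for Calr, 2.19 for Pdia6 and 1.49 for Xbp1, all called. It was -0.28 for Ppp1r15a, 0.17 for Eif2ak3, 0.16 for Herpud1, -0.17 for Bcl2, 0.19 for Hspa1a, -0.31 for Tusc3, 0.13 for Atf6 and 0.34 for Ero1b, none of them called. The signs of Eif2ak3, Herpud1, Hspa1a and Ero1b turned in that fit, as did that of Atf4, which was called higher at 0.40 (adjusted p = 0.047). Man1a stayed called lower there, and Bax stayed called higher at 1.42. Scaling changed fewer of these calls: Ddit3 was called higher at 0.63 with quantile normalization and 0.62 with median-ratio scaling, and Atf4 lower at -0.38 with quantile normalization, opposite to its call with the covariates. Quantile normalization left Vcp and Hsp90aa1 uncalled.

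**Figure D2:**
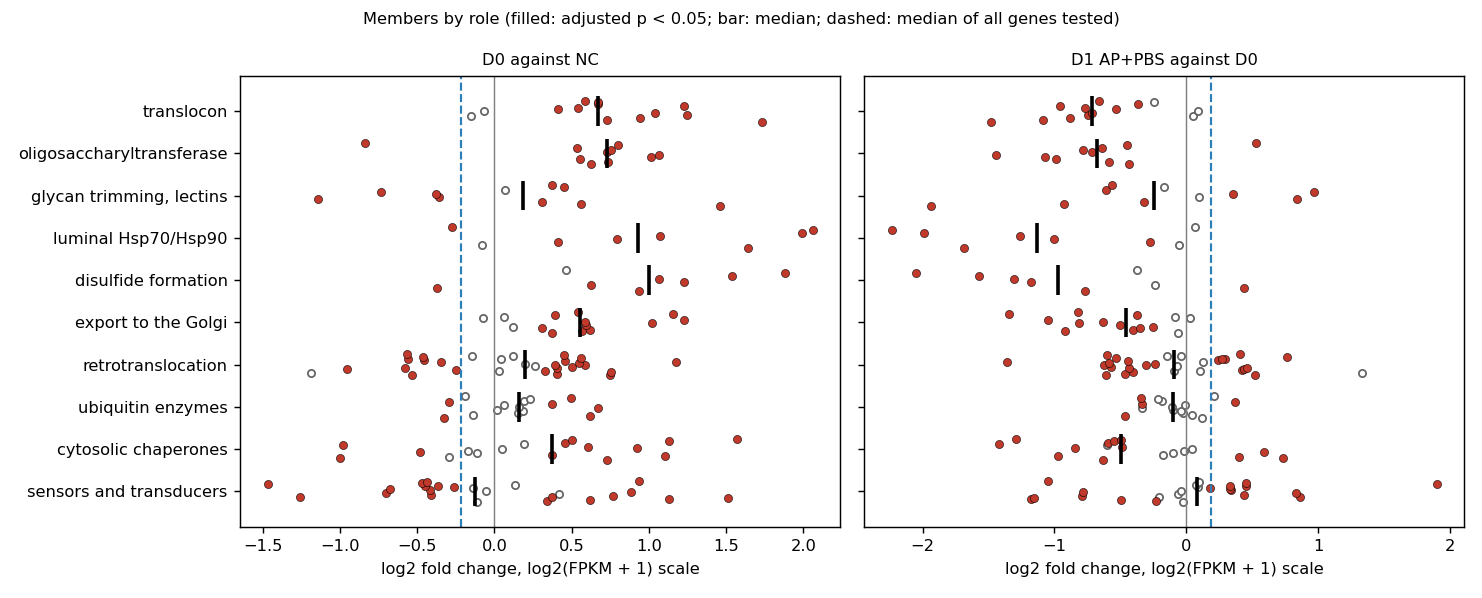
Log2 fold change of each tested member on the log2(FPKM + 1) scale (horizontal axis) by role (vertical axis), for D0 against NC on the left and D1 AP+PBS against D0 on the right; filled points have an adjusted p under 0.05, bars are role medians, and the dashed line is the median of all genes tested. At D0 the median of sensors and transducers lies at -0.13 and those of the other roles with more than 1 gene lie at 0.16 or higher, with the dashed line at -0.22.

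Promoter sequences show what some of these genes share upstream. RefSeq windows (GRCm38.p6), 250 bases before to 50 bases after each start site, were matched by NCBI Gene ID for 134 members. The ER stress element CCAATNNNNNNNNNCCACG, the known binding site of ATF6 together with NF-Y, was searched on both strands. It was present in 10 of the 134 members (7.46%) and in 37 of 27025 genes with a window (0.137%). Among matched members called higher at D0 it was present in 7 of 69 (10.1%), and among the other tested ones in 2 of 55 (3.64%). Its second form, ATTGGNCCACG, was present in 2 members (1.49%) and in 0.0444% of genes. The core TGACGTGG bound by XBP1 and ATF6, whose last bases are also the reverse complement of the end of the ER stress element, was found in 6 members (4.48%) and 0.714% of genes, and no member held both. The ATF4 core TGATGNAA was found in 4 members (2.99%) and 4.51% of genes. The 27025 genes include the members themselves and genes below the expression filter, so these shares are a description and not a test. A match describes letters in the window and is no evidence of binding.

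The stretches below are shown because they hold the element in the tested members. Each runs 5′ to 3′ in the direction of its gene, with 10 bases on either side, and the capitals mark the element, which reads CGTGG to ATTGG where it lies on the opposite strand.
Hspa5, chr2:34772015-34772053, plus strand: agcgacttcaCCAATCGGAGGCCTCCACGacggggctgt
Hsp90b1, chr10:86705628-86705666, minus strand: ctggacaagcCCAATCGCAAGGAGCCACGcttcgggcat
Hsp90b1, chr10:86705523-86705561, minus strand: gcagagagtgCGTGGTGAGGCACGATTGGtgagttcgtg
Dnajc3, chr14:118937817-118937855, plus strand: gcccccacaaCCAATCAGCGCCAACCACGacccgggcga
Pdia6, chr12:17266481-17266519, plus strand: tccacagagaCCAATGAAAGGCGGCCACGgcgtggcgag
Calr, chr8:84847065-84847103, minus strand: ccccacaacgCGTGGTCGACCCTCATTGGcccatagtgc
Canx, chr11:50325790-50325828, minus strand: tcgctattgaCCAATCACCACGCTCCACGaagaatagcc
Syvn1, chr19:6046522-6046560, plus strand: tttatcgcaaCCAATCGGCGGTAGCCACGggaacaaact
Ero1b, chr13:12565672-12565710, plus strand: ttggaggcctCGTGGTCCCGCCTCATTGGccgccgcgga
Derl3, chr10:75893232-75893270, plus strand: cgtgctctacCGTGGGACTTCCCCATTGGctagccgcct
Hsp90b1 held 2 copies, and the other 8 genes 1 each. The first 8 stretches belong to genes that rose at D0, by 1.99 for Hspa5, 1.07 for Hsp90b1, 0.79 for Dnajc3, 1.88 for Pdia6, 1.46 for Calr, 0.56 for Canx and 0.67 for Syvn1, and the last 2 to Ero1b at -0.37 and Derl3 at -1.19 (adjusted p = 0.17). With both secretory marker levels as covariates Derl3 was called higher at 2.99 (adjusted p = 0.0018), and Ero1b was not called at 0.34. That fit extrapolates at D0, where the B and plasma cell level lay below that of every library of the other groups. The second form of the element, with its capitals, lies before the start of Herpud1, a gene that was lower at D0. The other member with this form was Dnajb11, with the element 7 to 17 bases after its start, and that gene rose by 1.64 (adjusted p = 6.2e-10).
Herpud1, chr8:94386367-94386397, plus strand: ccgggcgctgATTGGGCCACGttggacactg

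How these levels stood a day later was examined in D1 AP+PBS against D0, a comparison that shares the D0 libraries with the one above. Of 149 members 28 were called higher (18.8%, background 43.0%) and 78 lower (52.3%, background 19.8%), with a median of -0.33 over members and 0.19 over all genes. Median-ratio and quantile scaling moved the median of all genes by -0.17 and -0.23 and gave 17 higher and 102 lower, and 15 higher and 81 lower members. Hspa5 had a lowest value of 268, a median of 303 and a highest of 327 FPKM in the 6 D1 AP+PBS libraries, against 1005, 1165, 1716, 1055 and 1174 FPKM in D0 (log2 fold change -1.99, SE 0.15, adjusted p = 1.2e-10). Calr had a lowest value of 304, a median of 339 and a highest of 400.5 FPKM in D1 AP+PBS, against 1188, 1305, 1636, 1239.8 and 1276 FPKM in D0 (log2 fold change -1.93, SE 0.12, adjusted p = 8.3e-12). In both genes the D1 AP+PBS libraries all lay below the D0 libraries. Hyou1, Pdia6 and Dnajb11 had log2 fold changes of -2.24 (adjusted p = 5.7e-10), -2.05 (adjusted p = 2.0e-11) and -1.69 (adjusted p = 2.3e-11).

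By role, 6 of 8 luminal chaperones, 5 of 8 oxidoreductases, 9 of 10 oligosaccharyltransferase subunits, 10 of 13 translocon genes and 11 of 14 export genes fell at day 1 relative to D0. Sensors and transducers had 10 of 24 members higher (background 43.0% of all genes) and 7 lower (background 19.8%). Ppp1r15a had a lowest value of 78.4, a median of 143 and a highest of 187 FPKM in D1 AP+PBS, against 29.9, 41.3, 22.6, 61.8 and 29.7 FPKM in D0 (log2 fold change 1.90, SE 0.25, adjusted p = 6.6e-07), with no overlap of the groups. Eif2ak3 rose by 0.83 (adjusted p = 2.6e-05), and its change was -0.01 with both marker levels as covariates. Man1c1 and Man1a rose by 0.97 (adjusted p = 2.3e-04) and 0.84 (adjusted p = 1.3e-07), and Bcl2 by 0.86 (adjusted p = 0.0051), against -0.35 with the covariates and no call with them or with quantile normalization. With those covariates, in a fit that extrapolates at D0, 12 members were higher and 86 lower. Without the 4 day 1 libraries named above 30 were higher (20.1%, background 45.4%) and 81 lower (54.4%, background 21.3%). The fibroblast and stellate cell markers summed to 24.9 to 300.3 FPKM in D1 AP+PBS and 6.77 to 17.8 FPKM in D0. For T and NK cell markers the sums were 96.9 to 319 FPKM in D1 AP+PBS and 8.01 to 36.4 FPKM in D0. Dendritic cell markers were at 103 to 185 FPKM in D1 AP+PBS and 16.8 to 42.3 FPKM in D0. Neutrophil markers were at 59.5 to 220 FPKM in D1 AP+PBS and 261 to 742 FPKM in D0. These lists did not overlap between the groups, and their part in the result was not tested.

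Against NC, few members differed in D1 AP+PBS: 7 were called higher (4.70%, background 5.29%) and 8 lower (5.37%, background 9.18%), shares near the background. Hspa5 had a log2 fold change of -0.0024 (SE 0.18, adjusted p = 1.00). Hsp90b1 had -0.19 (adjusted p = 0.64). Hspa1a had a lowest value of 6.78, a median of 12.9 and a highest of 18.7 FPKM in D1 AP+PBS, against 38.8, 36.1 and 38.6 FPKM in NC (log2 fold change -1.58, SE 0.34, adjusted p = 0.0021), and Hspa1b had -1.23 (adjusted p = 0.02). Every D1 AP+PBS library lay below every NC library in Hspa1a. Calr was lower at -0.47 (adjusted p = 0.026) and Canx at -0.37 (adjusted p = 0.015), and Hspa8, Ssr4, Erp29, a luminal thioredoxin-fold protein, and Bax were higher at 0.58 (adjusted p = 0.0084), 0.42 (adjusted p = 0.0497), 0.39 (adjusted p = 0.039) and 0.36 (adjusted p = 0.047). Quantile normalization gave 0 higher and 14 lower, median-ratio scaling 5 and 9. Without the 4 day 1 libraries 9 were higher (6.04%, background 8.82%) and 12 lower (8.05%, background 10.4%), and Bax was not called (adjusted p = 0.075). The count of 15 called was 4 without NC 1, 3 without NC 3, 9 without D1 AP+PBS 4 and 8 without D1 AP+PBS 6. Hspa1a stayed called without any 1 library, while Hspa1b, Calr, Canx, Hspa8, Ssr4, Erp29 and Bax each lost the call without NC 1 or without NC 3. The acinar markers summed to 947 to 5226 FPKM in D1 AP+PBS and 6326 to 10179.8 FPKM in NC, with no overlap. Counts with the acinar or the B and plasma cell level as a covariate are given below, and the part of the acinar markers was not tested beyond such fits.

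**Figure D3:**
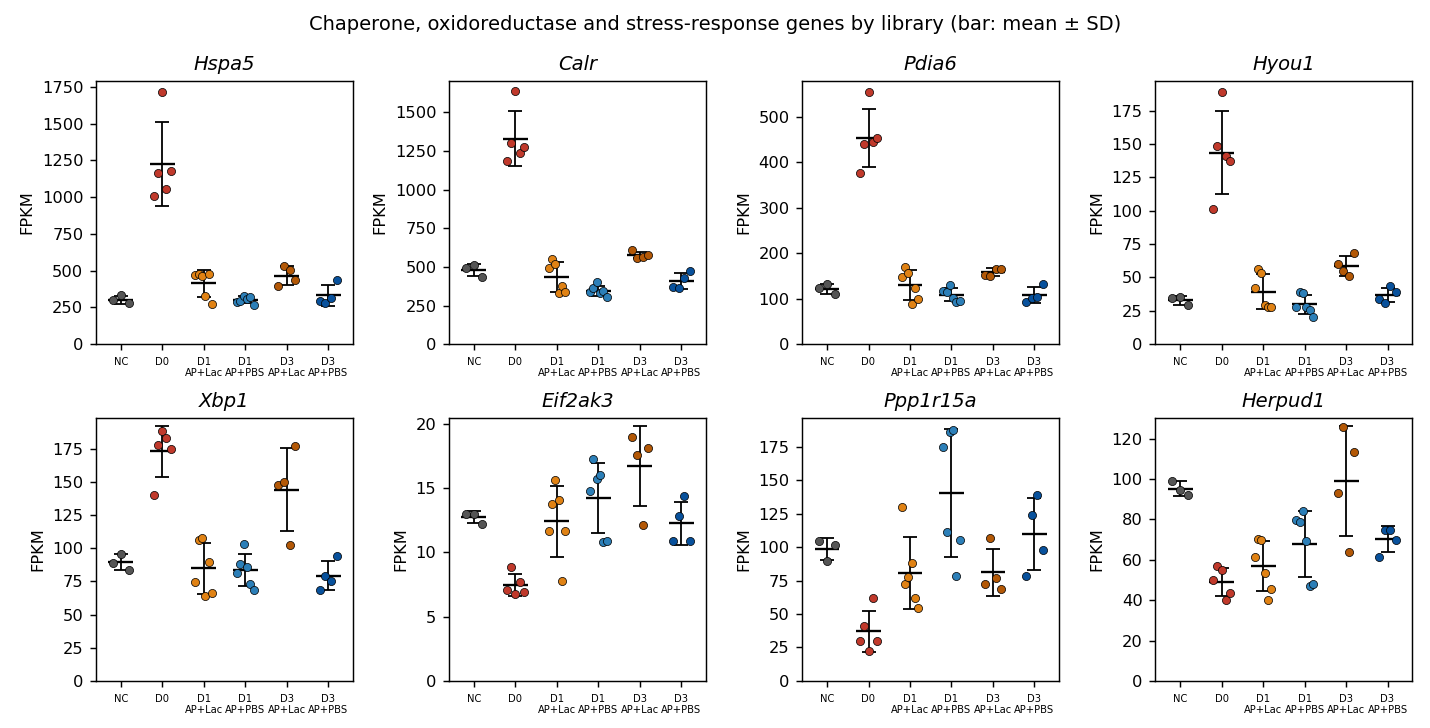
FPKM of 8 members in each library (vertical axes, from 0) by group (horizontal axes), with points for libraries and bars for the mean ± SD. Hspa5, Calr, Pdia6 and Hyou1 are highest in every D0 library, and Eif2ak3 and Ppp1r15a have their lowest group means there.

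Between days 1 and 3 with PBS, 21 members were called higher (14.1%, background 21.5%) and 12 lower (8.05%, background 12.8%) in D3 AP+PBS against D1 AP+PBS. Hspa5 had 0.12 (adjusted p = 0.61) and Hsp90b1 0.01 (adjusted p = 0.97). Bcl2 had 12.8, 12.8, 13.2 and 7.41 FPKM in D3 AP+PBS, against a lowest value of 2.83, a median of 4.57 and a highest of 7.61 FPKM in D1 AP+PBS (log2 fold change 1.15, SE 0.27, adjusted p = 0.0027). Man1c1 had 12.9, 9.99, 12.3 and 11.2 FPKM in D3 AP+PBS, against a lowest value of 18.7, a median of 30.3 and a highest of 41.5 FPKM in D1 AP+PBS (log2 fold change -1.28, SE 0.21, adjusted p = 1.8e-04). The groups overlapped in Bcl2, at the lowest D3 AP+PBS library, and did not in Man1c1. Ero1b and Selenos rose by 0.53 (adjusted p = 0.0047) and 0.46 (adjusted p = 0.0014), and Capn2, a calpain protease, Erp29 and Nfe2l2, the oxidative stress factor NRF2, had -0.58 (adjusted p = 0.0034), -0.49 (adjusted p = 0.0029) and -0.49 (adjusted p = 0.0076). The balance of the counts turned with the scaling, to 10 higher and 27 lower under median-ratio scaling and 13 and 19 under quantile normalization, and the count of 33 called was 21 without D1 AP+PBS 4. Without the 4 day 1 libraries 27 were higher (18.1%, background 25.0%) and 24 lower (16.1%, background 16.4%). Other cell markers moved with this comparison and did not overlap between the groups. T and NK cell markers summed to 427 to 592 FPKM in D3 AP+PBS and 96.9 to 319 FPKM in D1 AP+PBS, and dendritic cell markers to 267 to 336 FPKM in D3 AP+PBS and 103 to 185 FPKM in D1 AP+PBS. Endothelial markers summed to 32.1 to 47.8 FPKM in D3 AP+PBS and 11.8 to 26.3 FPKM in D1 AP+PBS. The macrophage markers summed to 7346 to 11344 FPKM in D3 AP+PBS and 12222 to 20216 FPKM in D1 AP+PBS. The part of these lists in the result was not tested.

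At day 3 with PBS, 9 members were called higher (6.04%, background 10.3%) and 9 lower (6.04%, background 10.9%) against NC. Hspa1a had 6.96, 9.14, 8.31 and 9.73 FPKM in D3 AP+PBS, against 38.8, 36.1 and 38.6 FPKM in NC (log2 fold change -2.03, SE 0.37, adjusted p = 3.4e-04), with every D3 AP+PBS library below every NC library. Hspa1b and Man1c1 were lower at -1.55 (adjusted p = 0.0059) and -1.05 (adjusted p = 0.0047), and Ero1b was higher at 0.60 (adjusted p = 0.0094). Hspa5 and Calr had 0.11 (adjusted p = 0.70) and -0.23 (adjusted p = 0.28). Under median-ratio scaling 3 were higher and 18 lower, and under quantile normalization 7 and 17. The count of 18 called was 10 without NC 1, 7 without NC 3 and 11 without D3 AP+PBS 2, and the call of Ero1b was lost without NC 3. Here too markers of other cells did not overlap between the groups, with T and NK cell markers at 427 to 592 FPKM in D3 AP+PBS and 93.5 to 151 FPKM in NC. Dendritic cell markers were at 267 to 336 FPKM in D3 AP+PBS and 153 to 207 FPKM in NC, and fibroblast and stellate cell markers at 122 to 226 FPKM in D3 AP+PBS and 36.9 to 58.96 FPKM in NC. Endothelial markers were at 32.1 to 47.8 FPKM in D3 AP+PBS and 21.1 to 29.8 FPKM in NC. B and plasma cell markers were at 563 to 959 FPKM in D3 AP+PBS and 439.9 to 527 FPKM in NC. Macrophage markers were at 7346 to 11344 FPKM in D3 AP+PBS and 15159.9 to 16644 FPKM in NC, and the part of these lists in the result was not tested.

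The effect of lactate at day 1 was examined in D1 AP+Lac against D1 AP+PBS, where the shares of members called were near or below the background. Of 149 members 9 were higher (6.04%, background 5.16%) and 4 lower (2.68%, background 4.56%), and the median was 0.04 over members and 0.02 over all genes. Cytosolic chaperones (17 tested) and stress sensors and transducers (24 tested) each had 3 members called higher, and the sensors and transducers also 2 called lower. For 0 members did every D1 AP+Lac library lie above every D1 AP+PBS library (0.134% of all genes). For 0 did every one lie below (0.276% of all genes), so these counts were near the background. Hsp90aa1 had a lowest value of 87.8, a median of 209.9 and a highest of 292 FPKM in D1 AP+Lac, against a lowest value of 82.6, a median of 121 and a highest of 157 FPKM in D1 AP+PBS (log2 fold change 0.68, SE 0.20, adjusted p = 0.035). Dnaja1, a cytosolic J-domain co-chaperone, and Hspa1b had 0.63 (adjusted p = 0.036) and 0.91 (adjusted p = 0.048). Pdia3 had a lowest value of 211, a median of 249 and a highest of 304 FPKM in D1 AP+Lac, against a lowest value of 178, a median of 193 and a highest of 215 FPKM in D1 AP+PBS (log2 fold change 0.34, SE 0.10, adjusted p = 0.034). In these genes most D1 AP+Lac libraries were above the D1 AP+PBS median, but the groups overlapped.

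Lower members with lactate at day 1 included Ppp1r15a, with a lowest value of 54.2, a median of 75.1 and a highest of 130.1 FPKM in D1 AP+Lac, against a lowest value of 78.4, a median of 143 and a highest of 187 FPKM in D1 AP+PBS (log2 fold change -0.77, SE 0.24, adjusted p = 0.039). Man1c1 had a lowest value of 11.4, a median of 13.2 and a highest of 30.7 FPKM in D1 AP+Lac, against a lowest value of 18.7, a median of 30.3 and a highest of 41.5 FPKM in D1 AP+PBS (log2 fold change -0.86, SE 0.19, adjusted p = 0.012). Both genes overlapped between the groups. Hspa5 had 0.43 (adjusted p = 0.061), Calr 0.30 (adjusted p = 0.099), Hyou1 0.36 (adjusted p = 0.21) and Xbp1 0.0048 (adjusted p = 0.99), none of them called. T and NK cell markers summed to 171 to 496 FPKM in D1 AP+Lac and 96.9 to 319 FPKM in D1 AP+PBS, dendritic cell markers to 146 to 262 FPKM in D1 AP+Lac and 103 to 185 FPKM in D1 AP+PBS, and macrophage markers to 7261 to 15497 FPKM in D1 AP+Lac and 12222 to 20216 FPKM in D1 AP+PBS. These ranges overlapped, and the part of the lists in the result was not tested.

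The day 1 result depended on the libraries compared. Without libraries 5 and 6 of both groups 32 members were higher (21.5%, background 16.4%) and 7 lower (4.70%, background 12.3%), 39 in place of 13. In that fit Hsp90aa1 had 1.00 (adjusted p = 3.0e-04), Man1c1 -1.29 (adjusted p = 1.1e-05), and Hspa5 and Calr were called higher at 0.49 (adjusted p = 0.025) and 0.38 (adjusted p = 0.035). Leaving out any 1 library other than D1 AP+PBS 2 moved the count of 13 called by more than 1.5 times, to between 1 without D1 AP+PBS 1 and 26 without D1 AP+PBS 5 or without D1 AP+Lac 6. Of the genes named here Man1c1 stayed called without any 1 library, and Hsp90aa1, Dnaja1, Hspa1b, Pdia3 and Ppp1r15a each lost the call without any of 7 or more libraries, D1 AP+PBS 1 and 4 among them. With only these 2 groups in the fit 0 members were called by limma, while 28 had an unadjusted p under 0.05, a count without the share of all genes.

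Lactate at day 3 was examined in D3 AP+Lac against D3 AP+PBS, where 5 members were called higher (3.36%, background 0.192%) and 0 lower (background 0.184%), while 57 of 149 had an unadjusted p under 0.05. The share of all genes at that unadjusted level is not given, so such counts cannot be read as particular to the members. For 29 members every D3 AP+Lac library lay above every D3 AP+PBS library (19.5%, against 3.34% of all genes), and for 2 every one lay below (1.34%, against 4.33%). The median log2 fold change was 0.14 over members and 0.02 over all genes. Luminal chaperones summed to a mean of 1248 FPKM in D3 AP+Lac and 785 FPKM in D3 AP+PBS, with 0 of the 8 called by limma and 6 at an unadjusted p under 0.05.

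The 5 called members fell in 4 roles, with Edem1 and Edem2 in the same one. Xbp1 had 148, 150.2, 102 and 177 FPKM in D3 AP+Lac, against 68.4, 79.2, 75.1 and 94.4 FPKM in D3 AP+PBS (log2 fold change 0.84, SE 0.17, adjusted p = 0.027). Pdia4 had 115, 135, 87.6 and 139 FPKM in D3 AP+Lac, against 52.2, 54.2, 58.9 and 68.5 FPKM in D3 AP+PBS (log2 fold change 1.00, SE 0.21, adjusted p = 0.035). In both genes the groups did not overlap, and D3 AP+Lac 3 was the lowest lactate library. Ckap4 had 22.4, 20.8, 11.9 and 25.7 FPKM in D3 AP+Lac, against 6.96, 8.71, 12.2 and 8.84 FPKM in D3 AP+PBS (log2 fold change 1.03, SE 0.20, adjusted p = 0.021). Edem1 had 74.4, 78.9, 62.7 and 88.3 FPKM in D3 AP+Lac, against 50.2, 45.6, 52.3 and 50.5 FPKM in D3 AP+PBS (log2 fold change 0.60, SE 0.10, adjusted p = 0.011). Edem2, a mannosidase-like protein that starts degradation of glycoproteins, had 50.3, 46.7, 29.2 and 55.5 FPKM in D3 AP+Lac, against 26.3, 30.03, 30.8 and 28.1 FPKM in D3 AP+PBS (log2 fold change 0.60, SE 0.13, adjusted p = 0.035). Edem1 separated the groups, while in Ckap4 and Edem2 the library D3 AP+Lac 3 fell within the range of D3 AP+PBS.

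Members that missed the threshold included Hsp90b1 at 0.90 (adjusted p = 0.062), Rpn1 at 0.70 (adjusted p = 0.073), Sec24d at 0.72 (adjusted p = 0.056), Lman1 at 0.64 (adjusted p = 0.078), Calr at 0.51 (adjusted p = 0.10), Hspa5 at 0.50 (adjusted p = 0.15) and Ddit3 at -0.71 (adjusted p = 0.087). Calr had 608, 560.1, 567 and 579 FPKM in D3 AP+Lac, against 373, 362, 427 and 476 FPKM in D3 AP+PBS. For Hspa5 the values were 393, 533, 503 and 436 FPKM in D3 AP+Lac, against 294, 283, 314 and 435 FPKM in D3 AP+PBS. The groups did not overlap in Calr and did in Hspa5, where D3 AP+PBS 4 lay above D3 AP+Lac 1. Derl3, a retrotranslocation gene known for high expression in plasma cells, had 27.98, 33.02, 6.86 and 41.1 FPKM in D3 AP+Lac, against 3.13, 8.22, 8.53 and 2.83 FPKM in D3 AP+PBS (log2 fold change 1.97, SE 0.72, adjusted p = 0.17).

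Markers of B and plasma cells moved with this result. They summed to 1624, 2128, 828 and 2432 FPKM in D3 AP+Lac, against 618, 959, 959 and 563 FPKM in D3 AP+PBS, with all 9 above 0 in every day 3 library. D3 AP+Lac 3 was the lowest lactate library here, as in Derl3, Xbp1, Pdia4, Ckap4, Edem1 and Edem2. That library was also the lowest lactate library for T and NK cell markers (244 FPKM), fibroblast and stellate cell markers (107 FPKM) and endothelial markers (16.8 FPKM). For acinar, dendritic cell, neutrophil and macrophage markers it was not the lowest, so its low place is not particular to B and plasma cell markers. Acinar markers were at 638, 3143, 1773 and 5697 FPKM in D3 AP+Lac, against 2821, 21770.1, 6847 and 5899 FPKM in D3 AP+PBS, and overlapped between the groups. The sum of 9 T and NK cell markers was 244 to 358 FPKM in D3 AP+Lac and 427 to 592 FPKM in D3 AP+PBS, that of 7 dendritic cell markers 140.2 to 173 FPKM in D3 AP+Lac and 267 to 336 FPKM in D3 AP+PBS, all above 0 in every day 3 library, and their part in the result was not tested. The share of all genes called is not given for the other fits that follow, so changes in their counts are not particular to the members. With the B and plasma cell level as a covariate 15 members were higher and 1 lower, with the acinar level 22 and 1, and with both, chosen after seeing the data, 0 and 0. With both covariates Edem1 had 0.57 (adjusted p = 0.054), Xbp1 0.65 (adjusted p = 0.092) and Pdia4 0.73 (adjusted p = 0.10). There 33 members had an unadjusted p under 0.05. With only the day 3 groups in the fit 0 members were called by limma, while 52 had an unadjusted p under 0.05. Leaving out any 1 library other than D3 AP+PBS 4 moved the count of 5 called by more than 1.5 times, to 0 without D3 AP+PBS 1, 1 without D3 AP+PBS 2 or without D3 AP+Lac 1, 2 or 4, 11 without D3 AP+PBS 3 and 15 without D3 AP+Lac 3. Edem1 lost the call only without D3 AP+PBS 1 (adjusted p = 0.051), and Xbp1, Pdia4, Ckap4 and Edem2 each lost it without D3 AP+PBS 1, D3 AP+PBS 2, D3 AP+Lac 1, D3 AP+Lac 2 or D3 AP+Lac 4, Edem2 also without D3 AP+PBS 4. Quantile and median-ratio scaling gave 24 and 11 called, all higher.

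**Figure D4:**
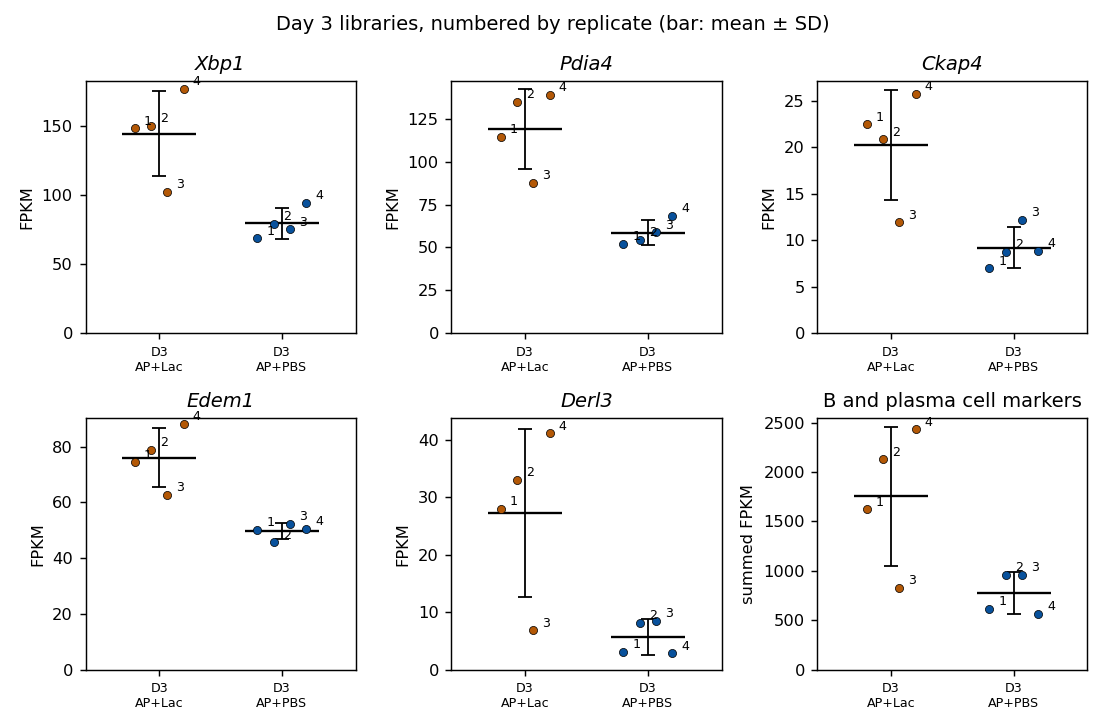
FPKM of 5 members and summed FPKM of 9 B and plasma cell markers (vertical axes, from 0) in the D3 AP+Lac and D3 AP+PBS libraries, numbered by replicate, with bars for the mean ± SD. In all 6 panels D3 AP+Lac 3 is the lowest lactate library, as it is for T and NK cell, fibroblast and stellate cell and endothelial markers, which are not shown.

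The lactate effects of the days were compared by their difference, day 3 minus day 1. For 13 members it was called higher (8.72%, background 4.76%) and for 2 lower (1.34%, background 5.94%). Ckap4 had an effect of 1.03 at day 3 and -0.23 at day 1 (difference 1.26, SE 0.25, adjusted p = 0.0057). Xbp1 had 0.84 and 0.0048 (difference 0.83, adjusted p = 0.018) and Edem1 0.60 and 0.07 (difference 0.52, adjusted p = 0.012). Man1c1 had 0.36 at day 3 and -0.86 at day 1 (difference 1.22, adjusted p = 0.013), and of these only the effect at day 1 was called. Without any 1 library these 4 differences stayed called. Hspa5, at 0.50 and 0.43, showed no called difference (adjusted p = 0.87, difference 0.07, SE 0.23). Without the 4 day 1 libraries 31 differences were called higher (20.8%, background 13.3%) and 18 lower (12.1%, background 15.2%). The count of 15 called was 7 without D3 AP+Lac 2, D3 AP+PBS 1, D1 AP+Lac 1 or D1 AP+PBS 1, 8 without D1 AP+PBS 4, 9 without D3 AP+Lac 1, D3 AP+PBS 2 or D1 AP+PBS 3, and 23 to 34 without D3 AP+Lac 3, D3 AP+PBS 3, D1 AP+Lac 6 or D1 AP+PBS 5.

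**Figure D5:**
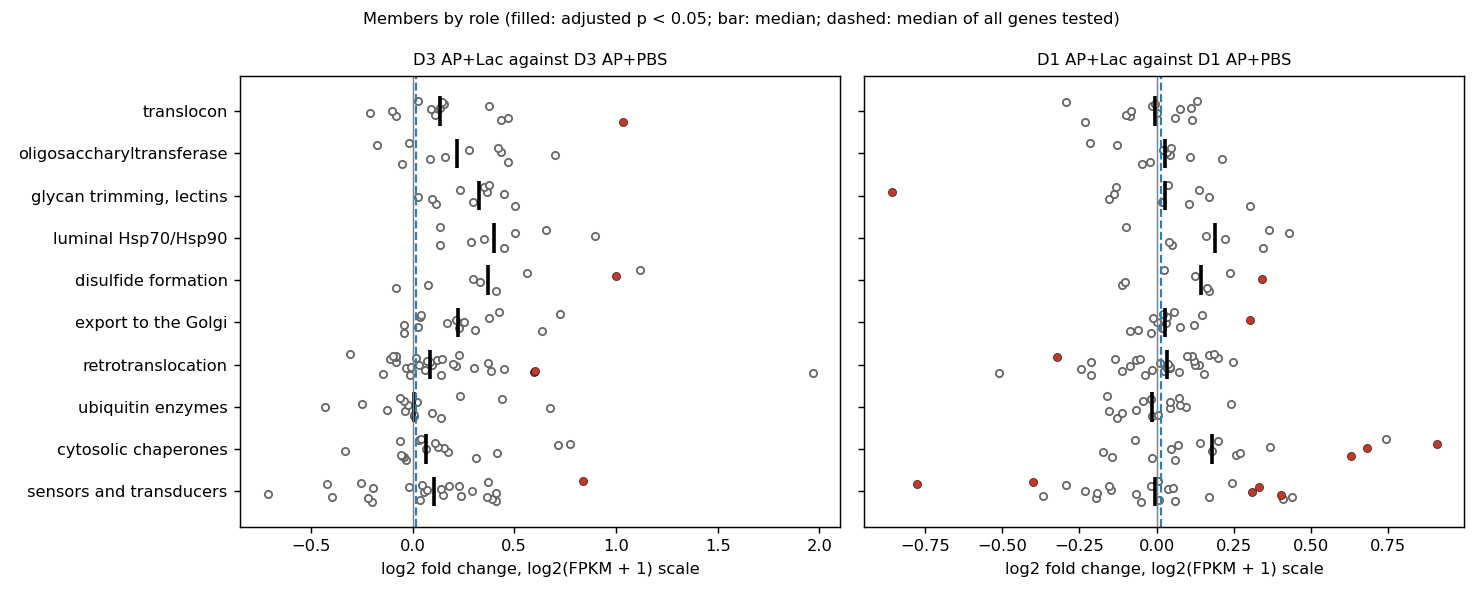
Log2 fold change of each tested member on the log2(FPKM + 1) scale (horizontal axis) by role (vertical axis), for D3 AP+Lac against D3 AP+PBS on the left and D1 AP+Lac against D1 AP+PBS on the right; filled points have an adjusted p under 0.05, bars are role medians and the dashed line is the median of all genes tested, 0.02 in both. The role medians at day 3 run from 0.01 for ubiquitin enzymes to 0.40 for luminal chaperones.

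Genes of the response outside the annotation entry were followed as well, 16 in all with 15 tested. At D0 against NC 8 were called higher (background 19.7% of all genes) and 2 lower (background 41.4%). At D1 AP+PBS against D0 2 were called higher (background 43.0%) and 8 lower (background 19.8%). Manf, a secreted cofactor of BiP, and Creld2 and Sdf2l1, both ER-resident proteins, had 2.14, 2.35 and 1.74 at D0 against NC (adjusted p = 5.4e-08, 1.2e-06 and 2.9e-07). Fkbp11, a prolyl isomerase of secretory cells, and Atf3, a stress factor, were lower, at -1.77 and -0.77 (adjusted p = 0.0072 and 0.02). In the same comparison Dnajb9, Trib3, Chac1, Asns and Sdf2 were not called, at 0.17, 0.07, -0.22, -0.48 and 0.08. Their adjusted p by limma were 0.43, 0.73, 0.33, 0.30 and 0.55. At day 3 with lactate against PBS 0 were called by limma (background 0.192% higher and 0.184% lower). There 5 had an unadjusted p under 0.05, and Creld2 was at 1.17 (adjusted p = 0.087).

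As a description of likeness over the 28 libraries, which share the 6 groups, the members whose log2(FPKM + 1) followed that of Hspa5 most closely were Dnajb11 (Pearson r = 0.98), Pdia6 (0.97), Pdia3 (0.97), Calr (0.95) and Hyou1 (0.94). Outside the entry they were Manf (0.97), Morf4l2 (0.96), Slc35b1 (0.96), Spcs2 (0.95) and Tmed2 (0.95). Over the 23 libraries without D0 the values of these 10 genes were lower, between 0.67 for Tmed2 and 0.89 for Dnajb11.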

How the data were processed

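RNA-seq was made from 10 ng of RNA of sorted pancreatic macrophages in 28 libraries. The deposited table holds FPKM values per gene made by the authors, with fastp and R 3.2.0 named in the submitters' processing notes; which aligner, counter and build were used is not given in the sources used here. Low FPKM values are whole multiples of the value of 1 fragment (99.9961% of values within 0.001 of a whole number), which gave 33273322 to 41060499 fragments per library. The number of libraries per group limits the precision more than this depth. No pair of libraries within a group (55 pairs) agreed within sampling noise.

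Members were taken from the table's pathway annotation, and members, gene lists, roles and markers were chosen with earlier results of these data known. Roles within the pathway were assigned from general knowledge and not by that annotation. Genes that reached 1 FPKM in 3 or more libraries were tested with limma 3.58.1 (R 4.3.3; trended, robust, two-sided) on log2(FPKM + 1), with all 28 libraries in 1 fit. Named genes were a fixed list of members, the 5 highest and the 5 lowest called log2 fold changes per comparison at a mean of at least 5 FPKM in 1 of the groups, and up to 3 members per role with the smallest p; others singled out were chosen after their values were seen. Alternatives were pseudocount 0.1, no filter, a filter at 5 FPKM, quantile and median-ratio scaling, plain moderation, fits of the groups compared alone, marker levels as covariates, the replicate number as a block, leaving out each library and leaving out 4 day 1 libraries together. The limma fit was tested on simulated data. Promoter windows came from RefSeq (GRCm38.p6). Tables and figures were made with Python 3.11.15, numpy 2.4.6, pandas 2.3.3 and matplotlib 3.10.9.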

Additional observations from a re-analysis of the deposited data

Results flagged for a closer look

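Of 190 sets of values (a fixed member or the members' share in 1 group of 4 to 6 libraries), 7 held a library far from the others of its group, where chance flags about 1 in 20. Pdia3 had 632 FPKM in D0 3, above the 442 to 477 FPKM of the other libraries of D0. Xbp1 had 140.2 FPKM in D0 1, below the 175 to 189 FPKM of the other libraries of D0. P4hb had 122 FPKM in D1 AP+PBS 5, below the 154 to 176 FPKM of the other libraries of D1 AP+PBS. Hsp90b1 had 412 FPKM in D3 AP+PBS 4, above the 283 to 297 FPKM of the other libraries of D3 AP+PBS. Syvn1 had 34.2 FPKM in D3 AP+PBS 3, above the 26.2 to 26.8 FPKM of the other libraries of D3 AP+PBS. P4hb had 190.0 FPKM in D3 AP+Lac 1, above the 167 to 168 FPKM of the other libraries of D3 AP+Lac. Hspa8 had 1506 FPKM in D3 AP+Lac 3, above the 1132 to 1183 FPKM of the other libraries of D3 AP+Lac.

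The lactate effect differed between the days for 15 members by limma's test of the difference, given here as day 3 minus day 1 on the log2(FPKM + 1) scale. In recognition and signalling the members were Xbp1 (0.83, adjusted p = 0.018, from 0.84 at day 3 and 0.0048 at day 1), Edem1 (0.52, adjusted p = 0.012, from 0.60 at day 3 and 0.07 at day 1), Edem2 (0.72, adjusted p = 0.0097, from 0.60 at day 3 and -0.11 at day 1), Ern1 (0.52, adjusted p = 0.041, from 0.29 at day 3 and -0.23 at day 1), Mbtps2 (0.38, adjusted p = 0.043, from 0.23 at day 3 and -0.15 at day 1) and Wfs1 (0.77, adjusted p = 0.013, from 0.37 at day 3 and -0.40 at day 1). In folding, entry and export they were Pdia4 (0.87, adjusted p = 0.042, from 1.00 at day 3 and 0.12 at day 1), Ckap4 (1.26, adjusted p = 0.0057, from 1.03 at day 3 and -0.23 at day 1), Lman1 (0.72, adjusted p = 0.031, from 0.64 at day 3 and -0.09 at day 1), Sec24d (0.70, adjusted p = 0.042, from 0.72 at day 3 and 0.02 at day 1) and Ddost (0.49, adjusted p = 0.039, from 0.47 at day 3 and -0.02 at day 1). The mannosidases Man1c1 and Man1b1 also had a higher effect at day 3: Man1c1 (1.22, adjusted p = 0.013, from 0.36 at day 3 and -0.86 at day 1) and Man1b1 (0.59, adjusted p = 0.015, from 0.45 at day 3 and -0.14 at day 1). Lower effects at day 3 were those of Traf2 (-0.50, adjusted p = 0.035, from -0.25 at day 3 and 0.25 at day 1) and Ubxn2a (-0.63, adjusted p = 0.031, from -0.15 at day 3 and 0.48 at day 1). The sum of B and plasma cell markers, which was higher in D3 AP+Lac than in D3 AP+PBS in 3 of 4 libraries and overlapped between the groups at day 1, moved with these members, and its part in the result was not tested beyond the fits with covariates.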

How the results depend on the processing

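The replicate numbers were not used as pairs in the main fit. Same-numbered libraries of the lactate and PBS groups deviated together with correlations of -0.53 to 0.28 at day 3. At day 1 these were -0.34, 0.49, 0.61, -0.21, 0.35 and 0.53 for numbers 1 to 6. The closest PBS library had the same number only for number 6 at day 1 and number 2 at day 3. Libraries 5 and 6 stood apart in both day 1 groups, so the numbers carry some shared structure there. With the replicate block, members called numbered 13 for lactate at day 3 (5 without it) and 23 for the difference between the days (15 without it), and stayed within 1.5 times in the other comparisons.

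Leaving out 1 library at a time gave 101 to 113 members called in D0 against NC (115 with all), 103 to 111 in D1 AP+PBS against D0 (106), 3 to 18 in D1 AP+PBS against NC (15), 21 to 40 in D3 AP+PBS against D1 AP+PBS (33), 7 to 18 in D3 AP+PBS against NC (18), 1 to 26 for lactate at day 1 (13), 0 to 15 for lactate at day 3 (5) and 7 to 34 for the difference between the days (15). With the acinar level as a covariate the counts were 71 for D0 against NC, 6 for D1 AP+PBS against NC, 23 for lactate at day 3 and 30 for the difference. With the B and plasma cell level they were 26 for D1 AP+PBS against NC, 30 for D3 AP+PBS against NC, 27 for lactate at day 1, 16 for lactate at day 3 and 24 for the difference. Both levels together, chosen after seeing the data, gave 0 for lactate at day 3 by limma, with 33 at an unadjusted p under 0.05. Fits of the compared groups alone gave 0 for lactate at day 1 and at day 3 and 5 for the difference. Without a filter on low values 4 were called for lactate at day 1 and 7 for the difference, a pseudocount of 0.1 gave 3 for lactate at day 3, quantile normalization gave 24 there and 34 for the difference, and median-ratio scaling gave 11 at day 3. The cause of these shifts was not tested. Without libraries 5 and 6 of both day 1 groups, also chosen after seeing the data, 51 were called in D3 AP+PBS against D1 AP+PBS, 39 for lactate at day 1 and 49 for the difference. The counts of the other alternatives stayed within 1.5 times. Among the alternatives, the share of all genes called is given only for the fits without the 4 day 1 libraries. Changes in the other counts are therefore not particular to the members.

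The following named members were called in at least 1 of the settings compared and turned sign between them. In D0 against NC, Hspa1a had 0.18 with the acinar level and 0.19 with both levels, Herpud1 0.16 with both, Ero1b 0.13, 0.24 and 0.34 with the acinar, the B and plasma cell and both levels, Atf4 0.37 and 0.40, Eif2ak3 0.15 and 0.17, and Derl3 2.60 and 2.99 with the B and plasma cell and both levels, and Casp12 0.14 and Wfs1 0.0047 under quantile normalization. In D1 AP+PBS against D0, Eif2ak3 had -0.0076 and -0.0067, Ero1b -0.16 and -0.16, Herpud1 -0.50 and -0.50, Derl3 -2.41 and -2.40, Cryab -0.023 and -0.023, Fbxo6 0.058 and 0.056 and Bcl2 -0.35 and -0.35 with the B and plasma cell and both levels, and Cryab -0.12 under quantile normalization. The cause was not tested. Fits with the B and plasma cell level extrapolate at D0, where that level lay below that of every library of the other groups. Over all alternatives for the named members, 8056 values kept the call or its absence, 580 lost a call and 212 gained one.

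FPKM are relative levels, NC has 3 libraries, and the marker levels used as covariates come from the same libraries as the members. Spliced and unspliced Xbp1, protein levels and phosphorylation of the sensors were not measured in this table.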

Other observations

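The 12 members below the filter peaked at 0.0172 FPKM for Ube2d2b and at 1.47 FPKM for Hspa1l, in the library D0 2. Cryaa, a lens crystallin, reached 1.22 FPKM in D3 AP+PBS 2.

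Casp12, a caspase bound to the ER membrane in rodents, was lower in D0 than in NC (log2 fold change -0.41, SE 0.16, adjusted p = 0.025) and higher with lactate than with PBS at day 1 (log2 fold change 0.40, SE 0.12, adjusted p = 0.038). Wfs1, an ER membrane glycoprotein known to restrain stress signalling, was lower in D0 against NC at -0.44 (adjusted p = 0.016), in D3 AP+PBS against NC at -0.59 (adjusted p = 0.0098) and in D1 AP+Lac against D1 AP+PBS at -0.40 (adjusted p = 0.035). Hsph1, a cytosolic nucleotide exchange factor, had 33.4, 47.2, 54.9, 42.2 and 47.5 FPKM in D0 and 19.02, 15.3 and 10.03 FPKM in NC (log2 fold change 1.57, SE 0.34, adjusted p = 3.1e-04). Quantile normalization gave 0.14 for Casp12 and 0.0047 for Wfs1 in D0 against NC, uncalled. The calls of Casp12 and Wfs1 were lost without NC 3 in the comparisons with NC named here, that of Casp12 also without NC 1, and at day 1 each was lost without any of 9 libraries.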
